A study of Mus musculus with 8 samples.

Results

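A set of 8 genes that guide lymphocytes into lymphoid tissue was examined in the mouse ileum, namely Glycam1, Madcam1, Chst4, Ccr7, Ccl19, Ccl21a, Cxcl13 and Cxcr5. They were chosen by name, with the difference between doxycycline and saline arrays already known, and every probe carrying one of these names was taken. Of the 8 genes, 7 have a probe under their name, with 10 probes in all, among 35715 gene names on the array. Ccl21a has 0 probes under that name and no value.

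The tissue came from female mice of an inducible knock-in strain, written Rosa26rtTA/+, Hprt Myc-Tnk1tg in the labels. rtTA, a transcription activator that needs doxycycline, sits at Rosa26, a locus active in most cell types, and a Myc-tagged Tnk1 transgene for a tyrosine kinase sits at Hprt. The treated mice received doxycycline by intraperitoneal injection at 50 µg per g in 100 µl, and the controls 100 µl of 0.9% NaCl, both 24 hours before analysis. Each group has 4 arrays with 1 colour, all on the same slide, with doxycycline and saline in different slide rows, so the effect of the slide row and that of the drug cannot be told apart. The labels give the controls the same strain but also call them wild type, age is not given, and doxycycline without the transgene was not among the groups. Whether each array is its own animal is not stated, so the spread behind the p-values may be technical.

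Lymphocytes leave the blood in lymph nodes and Peyer's patches through high endothelial venules, vessels whose lining carries addressins. Lymphocytes attach to sulfated sugars on mucin-like proteins such as the Glycam1 product, and the gut integrin alpha4 beta7 binds the Madcam1 product. The chemokines made from Ccl19 and Ccl21a then act on Ccr7, which directs T cells and mature dendritic cells, while the Cxcl13 product draws Cxcr5-bearing B cells into follicles.

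The letters that the array read are shown for the genes whose values the account turns on. For Glycam1 (mm9 chr15:103393339-103393398) and for the probe of Madcam1 toward its 5′ side (mm9 chr10:79129132-79129191) these are the designed 60-base probes, 5′ to 3′. The first Ccl19 line (mm9 chr4:41941813-41941872) is the probe used for the gene. The second (mm9 chr4:41740584-41740643) lies before the RefSeq start by its letters, not by that position.
Glycam1 probe: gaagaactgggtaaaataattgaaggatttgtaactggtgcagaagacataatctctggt
Madcam1 probe, 5′ side: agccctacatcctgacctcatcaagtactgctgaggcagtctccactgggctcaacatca
Ccl19 probe, used: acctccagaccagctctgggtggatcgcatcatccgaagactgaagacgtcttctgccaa
Ccl19 probe, before the start: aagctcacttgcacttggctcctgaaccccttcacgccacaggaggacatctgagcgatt
The second Ccl19 probe matched all of its 60 bases in the stretch from 131 to 72 bases before the RefSeq start of Ccl19. The third Ccl19 probe (mm9 chr4:42769865-42769924) lay across that start, with 27 bases before it and 33 from it onward. The array's mm9 positions place the Ccl19 probes, the one used included, far apart on chromosome 4. RefSeq also lists Ccl19 pseudogenes, so signal of near-identical copies cannot be separated from that of Ccl19.

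Promoters of 6 of the 8 genes are in the RefSeq table (GRCm38.p6), and Ccr7 and Cxcr5 have no entry there. The 250 bases before the start were searched on both strands for the core of the interferon-stimulated response element, which 2.98% of 32851 promoters hold, and for the kappa-B consensus, which 7.25% hold. Shown are Madcam1 and Ccl19, which held matches, and Glycam1, which held none, and capitals mark the motif matches. Cxcl13, not shown, also held none. Its levels varied with those of Glycam1 (Pearson r of 0.97 after group means were subtracted), as those of Ccl19 did (0.92). The choice therefore ties no motif to how the levels varied.
Madcam1 (chr10:79664309-79664558, plus strand): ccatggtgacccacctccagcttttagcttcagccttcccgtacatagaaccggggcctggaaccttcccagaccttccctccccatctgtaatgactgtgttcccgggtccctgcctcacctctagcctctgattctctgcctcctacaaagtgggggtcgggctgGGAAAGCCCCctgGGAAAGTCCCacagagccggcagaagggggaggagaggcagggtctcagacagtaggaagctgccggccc
Ccl19 (chr4:42756366-42756615, minus strand): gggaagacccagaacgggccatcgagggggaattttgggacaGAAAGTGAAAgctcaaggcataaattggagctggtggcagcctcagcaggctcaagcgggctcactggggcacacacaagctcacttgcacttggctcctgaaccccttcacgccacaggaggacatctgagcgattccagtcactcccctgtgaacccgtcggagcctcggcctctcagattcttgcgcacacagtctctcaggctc
Glycam1 (chr15:103565082-103565331, minus strand): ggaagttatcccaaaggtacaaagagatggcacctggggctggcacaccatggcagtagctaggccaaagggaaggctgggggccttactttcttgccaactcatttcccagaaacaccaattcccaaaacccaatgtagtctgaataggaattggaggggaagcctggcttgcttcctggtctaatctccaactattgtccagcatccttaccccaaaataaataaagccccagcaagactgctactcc
Madcam1 held 2 kappa-B matches that begin 83 and 70 bases before the start, and 1.03% of promoters hold 2 or more. Ccl19 held 1 match to the interferon element, which begins 208 bases before the start and overlaps no other. The windows of Glycam1, Chst4, Cxcl13 and Ccl21a held neither motif. A match is a description of letters only.

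Levels are log2 processed intensities minus the array's own 75th percentile, so values can be compared between arrays for a probe but not between probes. A probe counts as detected where the scanner software called it well above background. The lowest level so called was -5.15 to -4.72 on doxycycline arrays and -3.29 to -2.83 on saline arrays, so dim probes were detected more easily on doxycycline arrays. All 8 markers of ileal epithelium were detected on all 8 arrays, and their mean level was 6.14 ± 0.28 on doxycycline arrays and 6.32 ± 0.18 on saline arrays (SD, n = 4 each). Among them Cdx2, a transcription factor of intestinal epithelium, was lower with doxycycline (log2 difference -1.15, limma adjusted p = 0.00571).

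Before the members, a single array needs mention: saline 2 stood apart from the other saline arrays. In saline 2, 6 of the 7 measured members lay at least 2 log2 units above every other saline array, against 0.652% of all genes tested. On none of the other 7 arrays did a member stand that far above the rest of its group. Of 18 B cell genes, 14 lay at least 2 units above in saline 2, as did 3 of 7 germinal centre, 2 of 15 T cell and 0 of 14 blood vessel genes. The 3 genes farthest above, picked after their values were seen, were Fcmr, Ms4a1 (CD20) and Cr2 (complement receptor 2), all genes of B cells, with gaps of 5.32, 5.08 and 4.89. Member differences and list counts are therefore also given without saline 2, a choice made after these values were seen. In whole tissue, fewer cells of a type and less RNA per cell cannot be told apart.

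Group differences of the members are given without a test, because that comparison chose them. All 7 measured members had a higher mean with doxycycline, a direction that 50.8% of the 21362 genes tested shared. In 1 of the 7, Glycam1, every doxycycline array lay above every saline array, against 8.86% of genes. Without saline 2 this held for 6 of the 7, against 13.4%, with Chst4 as the exception.

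**Figure D1:**
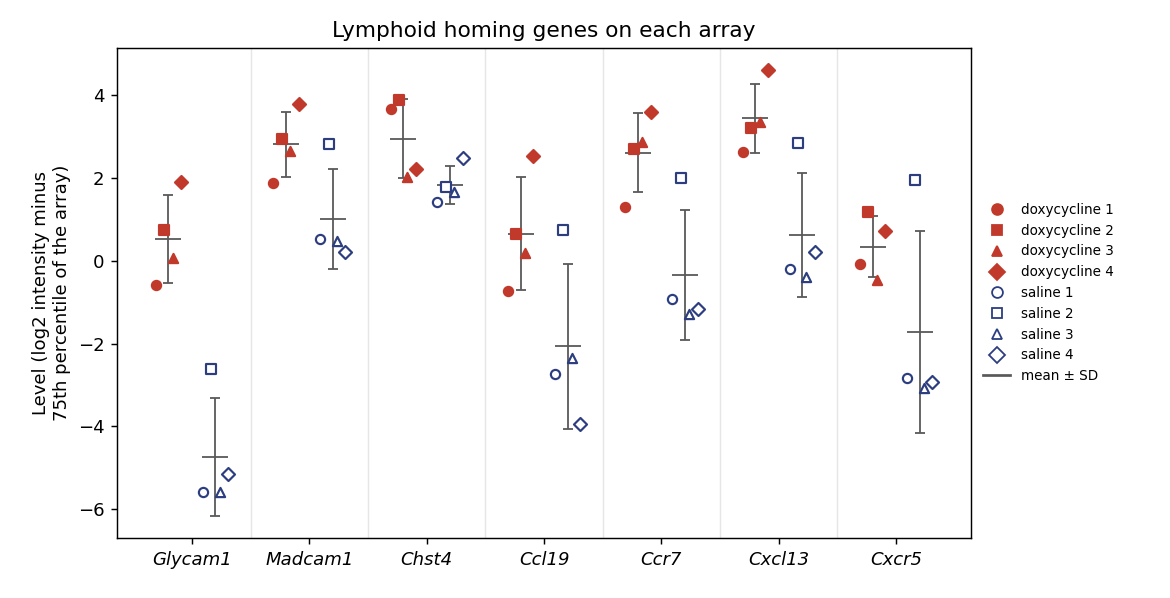
Level of each measured gene (log2 intensity minus the array's 75th percentile) on 4 doxycycline arrays (filled) and 4 saline arrays (open), with bars for mean and SD. Saline 2 (open square) sits among or near the doxycycline arrays for Madcam1, Ccl19, Ccr7, Cxcl13 and Cxcr5 and between the groups for Glycam1, while Chst4 shows no such gap.

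Among the vessel-side genes, Glycam1 showed the widest difference. Its levels were -0.59, 0.74, 0.06 and 1.90 on doxycycline arrays 1 to 4, and -5.59, -2.61, -5.57 and -5.16 on saline arrays 1 to 4. Every doxycycline array was detected, whereas saline 2 was the only saline array detected, and the groups did not overlap. Doxycycline arrays averaged 0.53 ± 1.06 and saline arrays -4.73 ± 1.43 (SD, n = 4 each), which is 38.4-fold, or 62.7-fold without saline 2. Because 3 saline arrays were below detection, the size of the fold is uncertain: with a common floor the log2 difference was 3.31 in place of 5.26, and with normexp background it was 2.99. The lowest doxycycline array, at -0.59, lay above the lowest detected level of each saline array (-3.29 to -2.83).

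Madcam1, the mucosal addressin, was read by 2 probes. The one used for the gene, toward the 3′ side (mm9 chr10:79131212-79131271), read 1.89, 2.94, 2.65 and 3.79 with doxycycline, and 0.53, 2.82, 0.49 and 0.21 with saline. Doxycycline 1 and 3 lay below saline 2, and all 4 doxycycline arrays lay above the other 3 saline arrays. Madcam1 averaged 2.82 ± 0.78 on doxycycline arrays, against 1.01 ± 1.22 on saline arrays (SD, n = 4 each), a 3.49-fold difference, or 5.31-fold without saline 2. On the 5′-side probe, detected on 4 doxycycline and 1 saline arrays, the levels were -3.14, -2.17, -2.64 and -1.68 with doxycycline, and -5.52, -2.60, -4.79 and -5.10 with saline. Both probes thus put saline 2 inside the doxycycline range.

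Chst4 encodes a sulfotransferase that sulfates addressin sugars in high endothelial venules. It read 3.68, 3.88, 2.03 and 2.23 with doxycycline, and 1.42, 1.78, 1.68 and 2.49 with saline. Doxycycline 1 and 2 were high, and doxycycline 3 and 4 lay below saline 4, so the groups overlapped. Chst4 averaged 2.95 ± 0.96 on doxycycline arrays, against 1.84 ± 0.46 on saline arrays (SD, n = 4 each), a 2.16-fold difference, or 2.13-fold without saline 2. Saline 2, at 1.78, was close to the mean of saline 1, 3 and 4, which was 1.86. Chst4 was thus the only measured member in which saline 2 lay within the range of the other saline arrays.

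Ccl19, the Ccr7 ligand of reticular cells and mature dendritic cells, was read by 3 probes. The one used for the gene read -0.74, 0.66, 0.19 and 2.53 with doxycycline, and -2.73, 0.76, -2.35 and -3.94 with saline. Doxycycline 4 was the highest of all arrays, saline 2 exceeded doxycycline 1, 2 and 3, and saline 4 was not detected. Ccl19 averaged 0.66 ± 1.38 on doxycycline arrays, against -2.07 ± 1.998 on saline arrays (SD, n = 4 each), a 6.62-fold difference, or 12.7-fold without saline 2. Its log2 difference of 2.73 was 1.70 with normexp background and 1.775 with the mean of its probes. The probe across the RefSeq start differed 2.64-fold and the one before it 2.29-fold between the groups.

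No probe bears the name Ccl21a, Ccl21b or Ccl21c. A pair of probes for Gm13304 and Gm1987, picked after the files were read, share a run of 43 of their 60 bases, and RefSeq lists Ccl21b and Ccl21c as synonyms of Gm13304. The Gm13304 probe averaged 5.89 ± 0.70 on doxycycline arrays, against 5.13 ± 0.79 on saline arrays (SD, n = 4 each), and the groups overlapped. The Gm1987 probe averaged 5.89 ± 0.84 with doxycycline and 4.83 ± 1.02 with saline. Which of the near-identical Ccl21 copies gave these signals was not resolved.

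Ccr7, the receptor for both chemokines, read 1.31, 2.70, 2.87 and 3.61 with doxycycline, and -0.92, 2.01, -1.27 and -1.17 with saline. Doxycycline 1 lay below saline 2, and otherwise the doxycycline arrays were higher. Ccr7 averaged 2.62 ± 0.96 on doxycycline arrays, against -0.34 ± 1.58 on saline arrays (SD, n = 4 each), a 7.78-fold difference, or 13.4-fold without saline 2.

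Cxcl13, the follicle chemokine, read 2.63, 3.21, 3.35 and 4.61 with doxycycline, and -0.20, 2.84, -0.38 and 0.21 with saline. Doxycycline 1 lay below saline 2, and the other 3 doxycycline arrays lay above all saline arrays. Cxcl13 averaged 3.45 ± 0.83 on doxycycline arrays, against 0.62 ± 1.502 on saline arrays (SD, n = 4 each), a 7.12-fold difference, or 11.9-fold without saline 2. Its receptor gene Cxcr5 read -0.06, 1.18, -0.46 and 0.72 with doxycycline, and -2.82, 1.95, -3.08 and -2.91 with saline. Saline 2 was the highest of all 8 arrays for Cxcr5, and saline 4 was not detected. Cxcr5 averaged 0.35 ± 0.74 on doxycycline arrays, against -1.72 ± 2.45 on saline arrays (SD, n = 4 each), a 4.18-fold difference, or 9.74-fold without saline 2. Saline 1, 3 and 4 lay near the lowest detected levels of saline arrays (-3.29 to -2.83), so the size of these folds is uncertain. With normexp background the log2 difference of Cxcr5 was 1.33 in place of 2.06, and with a common floor 1.98.

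Within the doxycycline group, 5 of the 7 measured members shared their highest and lowest arrays. Doxycycline 4 was the highest doxycycline array for Glycam1, Madcam1, Ccl19, Ccr7 and Cxcl13, and doxycycline 1 the lowest for the same 5 genes. Cxcr5 and Chst4 were instead highest in doxycycline 2 and lowest in doxycycline 3. After each group's mean was subtracted, Glycam1 and Madcam1 had a Pearson r of 0.97 over the 8 arrays, Glycam1 and Cxcl13 also 0.97, and Glycam1 and Chst4 -0.19. In Glycam1, Madcam1 and Cxcl13, saline 2 is the farthest of the 8 points from its group's mean. These r values span both groups and do not describe the doxycycline group alone.

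The 3 genes most like each member were taken by the same r, out of 13862 named genes. For Cxcr5 they began with Cr2 (r = 0.996) and Ms4a1 (0.992). For Madcam1 they were Lef1 (0.993), a transcription factor of naive T cells, Cd2 (0.992), an adhesion molecule of lymphocytes, and Cyth1 (0.990). Ccr7 was followed by Hhex, Lat2 and Fam65b (0.986 to 0.993), Ccl19 by Arhgef6, Bach2 and Rftn1 (0.986 to 0.991), and Cxcl13 by Timd2, Tnfrsf26 and Treml2 (0.993 to 0.998). Glycam1 was closest to Csn2 (0.998), the milk protein beta-casein, then to Ehd3 and Stra6. Csn2 was dim, at -4.40, -3.25, -3.65 and -1.88 with doxycycline, and -5.35, -2.39, -5.35 and -4.97 with saline, and was detected on 1 saline array. Lalba, another milk protein gene, averaged -1.85 ± 0.12 on doxycycline arrays and -1.88 ± 0.21 on saline arrays (SD, n = 4 each; limma adjusted p = 0.899), and the other 4 of 6 mammary markers were too dim to be tested. Chst4 was closest to Ezh2, Omp and Map10 (0.986 to 0.990). Saline 2 is a shared high point for the members other than Chst4. Without it, over 7 arrays, Cxcr5 had r = 0.948 with Cr2, 0.911 with Ms4a1 and 0.885 with Cfap45, the last of its 3. Glycam1 and Csn2 then had r = 0.994, with both undetected in saline 1, 3 and 4.

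Companion lists of homing genes, immune and vessel cell types, ileal epithelium and tissues that can adhere to the sample held 192 genes, of which 189 are on the array and 167 were tested. Of these, 19 were higher and 9 lower with doxycycline (limma adjusted p under 0.05), which for the higher ones is 11.4%, against 5.98% of all genes tested. Lower calls made up 8.06% of all genes. Their median log2 difference was 0.40, against 0.01 for all genes. Without saline 2 the counts were 54 higher and 9 lower, while 6.73% of all genes were then higher and 7.33% lower. The lists were drawn up with earlier results of these data known. The higher calls include Selp, Gp2 and Ch25h, detected on all 4 doxycycline arrays but on 0 or 1 saline arrays. These genes met the filter on dim probes through doxycycline arrays alone.

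The B cell list was the one whose count of calls changed most on leaving out saline 2. All 18 genes had a higher mean with doxycycline, with a median log2 difference of 1.36, but only Blnk, a B cell receptor adaptor, passed the test (log2 difference 1.01, SE 0.249, limma adjusted p = 0.0306). Blnk lost its call without any of doxycycline 2, 3 and 4 and saline 1, 3 and 4 (adjusted p up to 0.0889). Without saline 2, 16 of the 18 passed as higher, all but Cd22 and Pax5. The mean level of the B cell list was 0.49 to 1.73 on doxycycline arrays and -1.64 to 1.95 on saline arrays, with saline 2 the highest of all 8. Of the 18 markers all were detected on each doxycycline array, 17 in saline 2, and 12 to 14 in saline 1, 3 and 4. Detection reached lower levels on doxycycline arrays (-5.15 to -4.72) than on saline arrays (-3.29 to -2.83), so these counts are not on equal terms between groups.

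**Figure D2:**
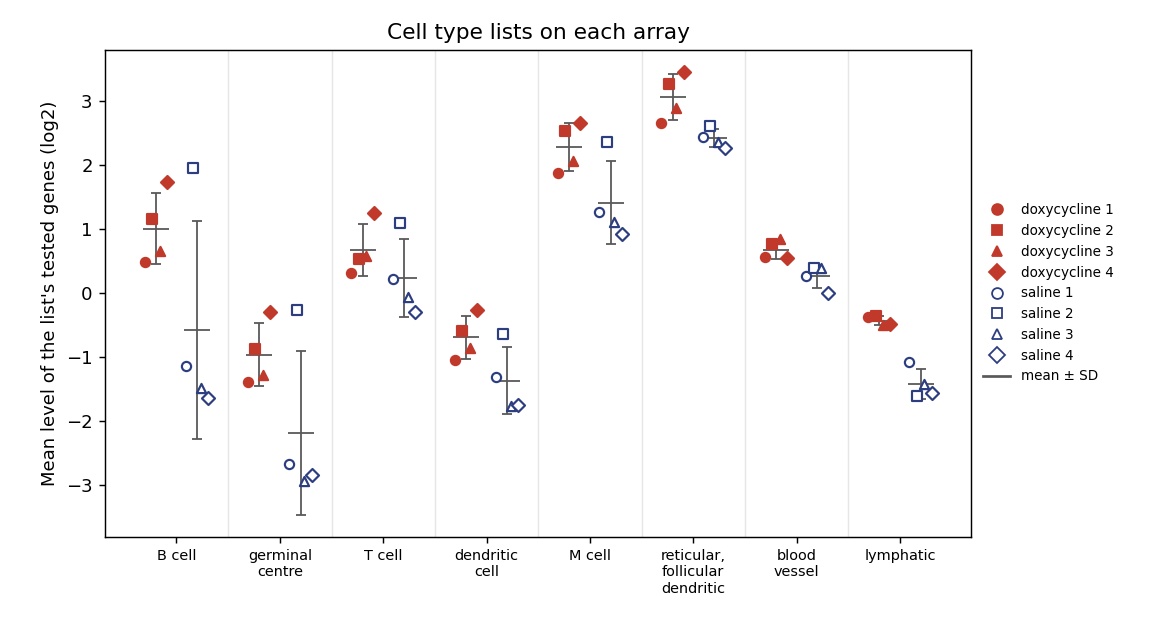
Mean level of the tested genes of 8 cell type lists (log2) on 4 doxycycline arrays (filled) and 4 saline arrays (open), with bars for mean and SD. Saline 2 (open square) is the highest array for the B cell list and nearly level with doxycycline 4 at the top of the germinal centre list. It lies with the other saline arrays for the blood vessel and lymphatic lists.

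The mean level of germinal centre genes, over 6 genes, was -0.26 in saline 2 and -0.29 in doxycycline 4, nearly level and above the other arrays. Of 8 markers on the array, 6 or 7 were detected on doxycycline arrays, 6 in saline 2, and 2 or 3 in saline 1, 3 and 4. Calls without saline 2 therefore rest largely on undetected saline signal. The median log2 difference of the list was 1.17. Of 7 tested, 0 passed in limma with all arrays (2 at an unadjusted p under 0.05) and 5 passed as higher without saline 2. Mef2b, a germinal centre transcription factor, had a log2 difference of 2.01 (adjusted p = 0.154). It was detected on 1 saline array, and its difference ranged down to 0.887 among its alternatives.

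Of 15 T cell genes tested, 0 passed in limma (3 at an unadjusted p under 0.05), with a median log2 difference of 0.30, and 2 passed without saline 2 (Cd2 and Lef1, both higher). Lef1 averaged 0.03 ± 1.12 on doxycycline arrays and -2.48 ± 1.61 on saline arrays (SD, n = 4 each; adjusted p = 0.0723), and 3.30 was its log2 difference without saline 2 (adjusted p = 0.00931). Bcl11b, needed for T cell identity, had a log2 difference of -0.63 (adjusted p = 0.0914). The dendritic cell list held 1 higher gene of 10, the chemokine Ccl17 (log2 difference 1.77, adjusted p = 0.0373), a call lost under 9 of its 18 alternatives, and 5 without saline 2.

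M cells are the antigen-sampling epithelial cells above follicles. Their list held 2 higher and 1 lower of 7 genes, with a median log2 difference of 0.60, or 3 and 1 without saline 2. Gp2, the M cell receptor for bacterial fimbriae, read 0.55, 2.04, 0.71 and 2.26 with doxycycline, and -3.49, 0.81, -3.30 and -3.26 with saline, where only saline 2 was detected. Its log2 difference was 3.70 (SE 0.935, adjusted p = 0.0328), which rests on 3 undetected saline arrays and was 2.32 with normexp background. The call was lost with a common floor, with the mean of its probes, and on leaving out any single array other than doxycycline 1 and saline 2 (adjusted p up to 0.0903). Of the list's higher calls, 0 were left with a common floor or without any 1 of these other 6 arrays. Marcksl1 was higher by a log2 difference of 1.17 (adjusted p = 0.0344) and the chemokine Ccl9 lower, with a log2 difference of -0.75 (adjusted p = 0.0453). Calls of these last 2 were lost under 8 and 10 of their 18 alternatives.

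Calls in the other venule and vessel lists are set beside all genes tested, of which 5.98% were higher and 8.06% lower. Of 10 genes that build the sulfated sugars of the peripheral node addressin, 0 passed in limma (2 at an unadjusted p under 0.05), also 0 without saline 2. Their median log2 difference was -0.06. Among them C1galt1, which makes the core O-glycan, had a log2 difference of 0.56 (adjusted p = 0.075) and its chaperone gene C1galt1c1 -0.54 (adjusted p = 0.0502). Of 8 scaffold and venule genes 1 fell, the matrix protein gene Sparcl1 (5.04 ± 0.30 with doxycycline and 6.08 ± 0.35 with saline, adjusted p = 0.019). That call was lost without doxycycline 4, saline 1 or saline 3 (adjusted p up to 0.0573). The 2 called higher without saline 2 were Ackr1 and Spns2 (adjusted p = 0.035 and 0.0194), named after their values were seen. With all arrays their log2 differences were 1.36 and 0.57 (adjusted p = 0.059 and 0.117). Of the 8 genes, 5 had a higher mean with doxycycline, and the list's median was 0.49. In the blood vessel list 3 of 14 rose (21.4%) and 0 fell, with a median of 0.41. Without saline 2 the counts were equal, with Plvap in place of Eng, and 1 gene was called without doxycycline 2, 3 or 4 or saline 1 or 3. Tie1, an endothelial receptor kinase, averaged -0.21 ± 0.39 with doxycycline and -1.99 ± 0.30 with saline (adjusted p = 0.00233). Esam and Eng had log2 differences of 0.66 and 0.58 (adjusted p = 0.0292 and 0.0484). A higher mean was seen in 12 of the 14, with Cldn5 and Kdr lower (log2 differences -0.69 and -0.14, adjusted p = 0.0722 and 0.78). Cldn5 lay lower on every doxycycline array than on any saline array. Both were named after their values were seen. In the lymphatic list 2 of 3 tested genes rose (66.7%). Lyve1, a hyaluronan receptor of lymph vessels and some macrophages, rose by 1.39 on the log2 scale (limma adjusted p = 0.0061), and Mmrn1 by 0.83 (adjusted p = 0.0116). The mean level of the blood vessel list was 0.544 to 0.848 on doxycycline arrays and 0.003 to 0.391 on saline arrays, without overlap. That of the lymphatic list was -0.505 to -0.364 with doxycycline and -1.612 to -1.079 with saline, also without overlap.

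Of the list of reticular and follicular dendritic cells, 2 of 8 genes rose, or 3 without saline 2, with a median log2 difference of 0.76. Pdgfra and Pdgfrb, growth factor receptors of fibroblasts and pericytes, had log2 differences of 1.24 and 0.81 (adjusted p = 0.0179 and 0.0488). Pdgfra lost its call under 4 and Pdgfrb under 11 of 18 alternatives. The list held 0 higher calls without doxycycline 4 or saline 3, and 1 without doxycycline 1, doxycycline 2, saline 1 or saline 4 or with a common floor. Without saline 2 the 3 higher calls were Pdgfra, Clu and Mfge8 (adjusted p = 0.0311, 0.00706 and 0.0135), while Pdgfrb lost its call (adjusted p = 0.0923). Saline 2 lay near the other saline arrays for Pdgfra, at 0.29, against 0.53, 0.25 and -0.19 in saline 1, 3 and 4. Clu and Mfge8 were named after their values were seen. For both, saline 2 lay above every other saline array and inside the doxycycline range, at 6.37 and 7.14.

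In the selectin and integrin list, 2 of 17 genes rose and 0 fell, and without saline 2 these were 4 and 1. The median log2 difference was 0.06. Vcam1, which binds alpha4 integrins, read 1.51, 2.15, 2.34 and 2.77 with doxycycline, and 0.19, 1.47, 0.12 and -0.13 with saline. It was 3.43-fold higher (SE 0.383 on the log2 scale, limma adjusted p = 0.019), and its groups did not overlap. The call was lost without doxycycline 3 or 4 or saline 1 or 3 (adjusted p up to 0.0583). Selp, the endothelial P-selectin gene, passed the test as well (adjusted p = 0.00939), but 0 saline arrays had it well above background, so no fold is given. It met the filter on dim probes through the doxycycline arrays alone, so its call cannot be taken as a result. With normexp background its log2 difference turned to -0.045. The integrin subunits Itga4 and Itgb7 had log2 differences of 1.16 and -0.46 (adjusted p = 0.108 and 0.242), and Icam1 1.26 (adjusted p = 0.239). Icam1 was detected on 1 saline array, and its difference ranged down to 0.12 among its alternatives.

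The list of other homing chemokines and receptors held 4 higher and 3 lower of 13 tested genes, with a median log2 difference of 0.59. Without saline 2 the counts were equal, with Ccr6 in place of Ackr3. The higher calls numbered 0 without saline 3, 1 without doxycycline 2, doxycycline 4, saline 1 or saline 4 or with a common floor, and 2 without doxycycline 3, while the lower calls numbered 3 without any single array. The 3 lower ones were Ccl25, Ccl28 and Ccr10. Ccl25, the small-bowel ligand of Ccr9, averaged 6.24 ± 0.28 with doxycycline and 7.53 ± 0.18 with saline (log2 difference -1.29, SE 0.181, adjusted p = 0.00301), and the mean of its probes did not pass (adjusted p = 0.0997). Ccl28 and its receptor gene Ccr10, which guide IgA plasma cells, had log2 differences of -1.58 and -2.01 (adjusted p = 0.0122 and 0.00726). For these 3 genes saline 2 lay on the side of the other saline arrays.

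The higher ones were Ch25h, S1pr1, Ackr3 and Cxcr4, of which the last 3 were picked after their values were seen. Ch25h makes 25-hydroxycholesterol, from which ligands of the follicle-edge receptor Gpr183 are made. It averaged -1.09 ± 0.62 with doxycycline and -3.84 ± 1.21 with saline (log2 difference 2.75, adjusted p = 0.0165), with 3 saline arrays undetected. That difference was 1.56 with a common floor and 1.11 with normexp background, and the call was lost without saline 3 (adjusted p = 0.0509). S1pr1, the lymphocyte egress receptor, Ackr3, a scavenger of Cxcl12, and Cxcr4, its signalling receptor, had log2 differences of 1.68, 1.02 and 2.34 (adjusted p = 0.0304, 0.0361 and 0.0498).

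Lymphotoxin signals keep venules and follicle stroma in place. In that list 2 of 18 genes rose and 3 fell, or 4 and 2 without saline 2. The genes that fell numbered 1 or 2 on leaving out any single array other than saline 4. The median log2 difference was 0.22. Tnf and the receptor gene Tnfrsf1a rose by 1.61 and 0.70 on the log2 scale (adjusted p = 0.00746 and 0.012). Tnfrsf11a, the receptor RANK, fell by 0.99 on the same scale (adjusted p = 0.0144), and Map3k14, the kinase NIK, by 0.90 (adjusted p = 0.0354), named after its values were seen. Lta and Ltb, the lymphotoxin genes, had log2 differences of 0.98 and 0.57 (adjusted p = 0.44 and 0.56), and both were highest in saline 2, at -0.86 and 4.62. Lta was detected on 1 saline array, and its difference ranged down to -0.195 among its alternatives. The lymphotoxin receptor gene Ltbr stood at 0.19 (adjusted p = 0.527).

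**Figure D3:**
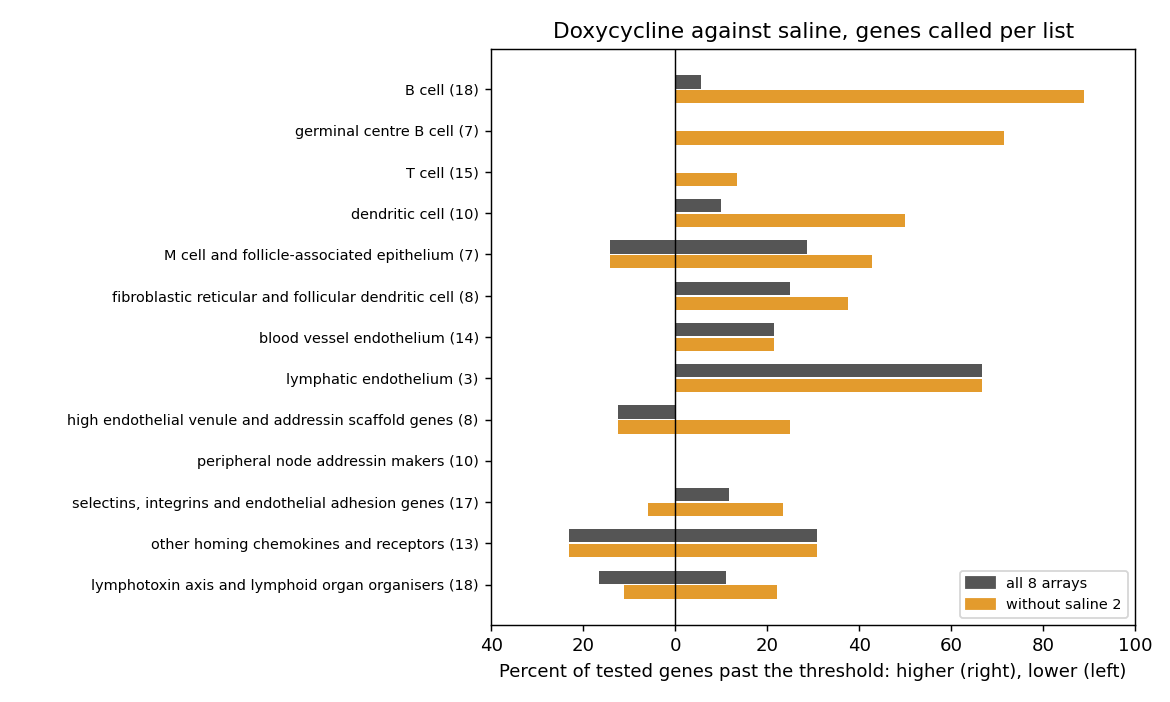
Percent of each list's tested genes (number in parentheses) that passed limma's adjusted p of 0.05 as higher (right) or lower (left) in doxycycline arrays, with all 8 arrays (grey) and without saline 2 (orange). The B cell list goes to 16 of 18 genes without saline 2, against 1 of 18 with all arrays, while the blood vessel and lymphatic lists keep their counts.

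Tissues that can adhere to an ileum sample were checked. Of 7 fat genes 0 passed in limma (1 at an unadjusted p under 0.05), with a median log2 difference of -1.90, and their mean level was -1.74 in doxycycline 4 and 2.24 to 3.61 on the other doxycycline arrays, against 2.47 to 4.86 on saline arrays. Plin1, a lipid droplet protein gene, had a log2 difference of -1.90 (adjusted p = 0.235) and the receptor gene Adrb3 -1.15 (adjusted p = 0.15). Doxycycline 4, the array lowest in fat genes, was the highest doxycycline array for 5 members. Doxycycline 1, the next lowest in fat genes at 2.24, was the lowest doxycycline array for the same 5. A relation of fat content to the members was not tested. Of the pancreas markers 2 of 7 could be tested and 0 passed in limma (0 at an unadjusted p under 0.05), Cel and Ctrb1 with log2 differences of 0.23 and -0.12 (adjusted p = 0.452 and 0.677).

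Because B cell genes varied with the members, each member was also set against the mean level of the B cell list on the same array. Glycam1 then stood at -1.08, -0.41, -0.59 and 0.17 with doxycycline, and -4.46, -4.56, -4.10 and -3.52 with saline, a difference of 3.68 between the means. Glycam1 was undetected in saline 1, 3 and 4, so their place on this scale, and the size of that difference, rest on signal below detection. In saline 2, where it was detected, it lay below every doxycycline array. Cxcl13 stood at 2.06 to 2.88 with doxycycline and 0.90 to 1.85 with saline, without overlap, and Ccr7 at 0.81 to 2.22 with doxycycline and 0.07 to 0.47 with saline, also without overlap. Madcam1 averaged 1.81 ± 0.29 on doxycycline arrays and 1.59 ± 0.49 on saline arrays (SD, n = 4 each), a difference of 0.22. Cxcr5 differed by 0.48 and Ccl19 by 1.14, with overlap in both, and Chst4 turned to -0.47. The choice of list mattered. Against the T cell list the differences were 1.37 for Madcam1, 1.63 for Cxcr5, 2.30 for Ccl19 and 0.68 for Chst4, and against the blood vessel list 1.39, 1.64, 2.31 and 0.70 for the same genes in that order. Against those lists Glycam1 differed by 4.83 and 4.85 (blood vessel last), Ccr7 by 2.53 and 2.54, and Cxcl13 by 2.40 and 2.41. The part of lymphoid tissue content in the group differences was not tested beyond these values.

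**Figure D4:**
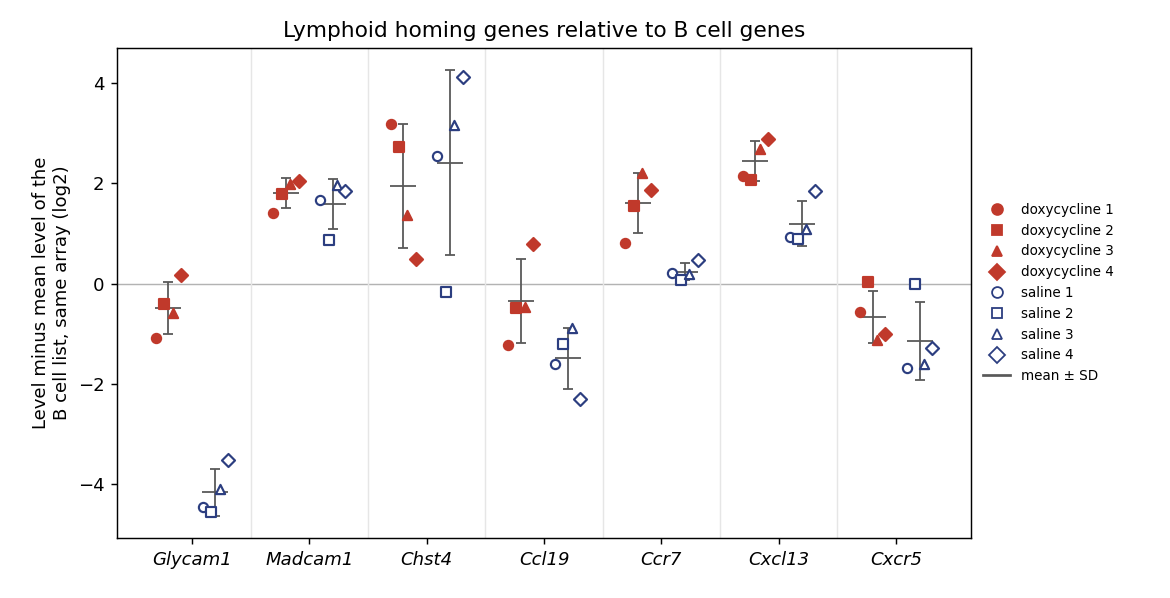
Level of each measured gene minus the mean level of 18 B cell genes on the same array (log2), on 4 doxycycline arrays (filled) and 4 saline arrays (open), with bars for mean and SD. Glycam1, Ccr7 and Cxcl13 keep apart between the groups, with Glycam1 undetected in saline 1, 3 and 4, and Madcam1 and Cxcr5 largely overlap.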

How the data were processed

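RNA of the ileum was measured on 8 Agilent mouse arrays, 4 per group, from 200 ng of RNA per the labels. Processed spot intensity (linear) was used as deposited. Per the file headers, version 10.7.3.1 of Agilent Feature Extraction made it with spatial and multiplicative detrending and surrogate values on. As deposited, the series' value table is log2 and differs from the processed intensity on that scale by 1 constant per array (within 0.01 for 100% of probes). What set that constant stays unknown. It served as an alternative. Its column medians were -3.77, -3.92, -3.83 and -3.81 for doxycycline 1 to 4 and -3.97, -3.70, -3.79 and -3.86 for saline 1 to 4.

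Control spots were dropped, as were 169 to 259 outlier spots on each array. Repeat spots of a probe were averaged on the log2 scale. No probe spot was saturated (0 on each array). Probes well above background on at least 4 of 8 arrays were kept, 28626 of 55681, and a gene was read from whichever kept probe had the highest mean (21362 genes). The 4 doxycycline arrays alone could meet this limit, and detection reached lower levels there. A dim gene could thus be tested through the group where it was high. Gene names and mm9 probe positions are those of the array files. No transcript annotation of mm9 was used here, so exons are not given.

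For the doxycycline against saline test, lmFit and eBayes of limma 3.58.1 (R 4.3.3) were run two-sided on 21362 genes. P-values were adjusted by Benjamini-Hochberg, with a threshold of 0.05. A run on simulated data used independent noise for each gene and array. The simulation held no array shifted across many genes and no unequal detection, so it cannot show that the calls hold in these data. The number of arrays limits the precision. Members and lists were chosen with earlier results of these data known. Beside the members, the rule names up to 4 called genes of each list with the smallest p, or 2 where none passed, with further homing genes and the 3 genes most like each member. Some genes that this rule names are not reported here. Alternatives were background, normalization, filter, floor, probe choice, replicate block, array weights, the deposited table and arrays left out. Same-numbered arrays, which share a slide column, had deviations correlated at -0.04 to 0.11, so the numbers were not taken as pairs.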

Additional observations from a re-analysis of the deposited data

Results flagged for a closer look

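In groups of 4 arrays, a value was singled out where its gap to the nearest other value, as a share of the group's range, passed Dixon's 95% critical value. Of 58 groups examined, 6 met this, all of them saline 2, and chance gives about 5% of groups. The groups are not independent, since these genes and lists varied together, so the 6 values describe 1 array and are not set against that share. Saline 2 read 2.01 for Ccr7 (next saline array -0.92), 1.95 for Cxcr5 (next -2.82), -2.61 for Glycam1 (next -5.16) and 2.82 for the Madcam1 probe used (next 0.53). Its mean level was 1.95 for the B cell list (next -1.14) and -0.26 for the germinal centre list (next -2.66). The array's part in the group differences is shown by the values without it.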

How the results depend on the processing

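Of 21362 genes, 1277 were higher and 1721 lower. These counts became 771 and 915 with the replicate block, 2908 and 3536 with array weights, and 639 to 1476 higher and 726 to 1987 lower when any single array was left out. Lower calls were 11871 with no filter on dim probes and 1037 with saline 2 and 4 both left out. Among companion genes, 19 were higher, against 11 with the replicate block, 11 with a common floor, 29 with no filter, 38 with array weights and 39 without saline 2 and 4. With detection required on all 8 arrays, 18 were higher. Leaving out single arrays gave 6 to 54 higher and 5 to 9 lower. The 6 came without saline 3 and the 54 without saline 2, and counts were 7 to 12 without doxycycline 2, 3 or 4 or saline 1 or 4. Array weights gave 16 lower, against 9, and 5 were called without doxycycline 4, saline 1 or saline 3. The cause of these shifts was not tested.

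Member differences kept their sign except Chst4 relative to the B cell list (-0.47). On that scale Ccr7 was 1.38, Cxcl13 1.25, Glycam1 3.68 and Madcam1 0.22. For Glycam1, normexp background gave 2.99 and a common floor 3.31. Normexp background gave 1.33 for Cxcr5 and 1.70 for Ccl19. Leaving out single arrays gave log2 differences of 4.81 to 5.97 for Glycam1, 1.48 to 2.41 for Madcam1, 0.81 to 1.42 for Chst4, 2.10 to 3.67 for Ccl19, 2.63 to 3.74 for Ccr7, 2.45 to 3.57 for Cxcl13 and 1.61 to 3.28 for Cxcr5. Glycam1, Ccl19 and Cxcr5 have no value where detection on all 8 arrays was required. With the replicate block Tnfrsf1a and Tnfrsf11a no longer passed (adjusted p = 0.057 and 0.0519), and the list of reticular and follicular dendritic cells held 0 higher calls, against 2. Selp turned to -0.045 with normexp background. Low signal limits Glycam1, Gp2, Csn2, Selp, Ch25h, Mef2b, Lta, Icam1 and Cel, among others, whose saline levels lay mostly near or below detection.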
